A study of Mus musculus with 12 samples.

Results

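The genes described here were the 9 core genes of transforming growth factor beta (TGF-beta) signaling in adult neural stem/progenitor cells (aNSPCs), taken out of the 55401 genes measured by RNA sequencing (RNA-seq). They are the ligand genes Tgfb1, Tgfb2 and Tgfb3, the receptor genes Tgfbr1, Tgfbr2 and Tgfbr3, and the SMAD genes Smad2, Smad3 and Smad4. The genes were selected by name from the pathway, with earlier results of these data known, so the adjusted p-values given for them describe the data and are not independent evidence. All 9 were listed in both deposited tables, and all 9 passed the filter on low values under both conditions.

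TGF-beta ligands are secreted in a latent form and have to be released before they can bind. An active ligand binds the type II receptor, which recruits and phosphorylates the type I receptor, and the type I receptor then phosphorylates SMAD2 and SMAD3. These receptor-regulated SMADs join the common partner SMAD4, enter the nucleus and regulate transcription. In the adult brain the pathway is best known for slowing the division of neural stem cells and for acting in astrocytes.

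The 12 samples fell into 4 groups of 3. aNSPCs came from the forebrain of adult C57BL/6 mice aged 8 to 10 weeks and were grown in medium with EGF and FGF-2. Under proliferating conditions, Ctrl cells received no NAD+ and the NAD+ group received nicotinamide adenine dinucleotide, a redox cofactor, at 1 mM. Differentiation conditions added 1 µM retinoic acid and 5 µM forskolin, again without (Ctrl) or with 1 mM NAD+. The groups follow the sample titles, since the treatment field of the labels calls all 12 samples untreated. The cultures were unsorted populations derived from dissociated tissue, and although the study calls its repeats biological, the labels do not say whether the 3 samples of a group came from separate mice or cultures, so p-values measure the spread between these samples. The exposure time of the RNA-seq samples is not given in the sources used here.

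The deposited values were FPKM (fragments counted per kilobase of a gene's transcript and normalized to the library's mapped total), rounded to 0.01, so the depth behind a value is unknown and no counting error can be given. The FPKM of all genes summed to between 308828 and 363330 in the proliferating samples, where 1 Ctrl sample (replicate 1) stood apart with the highest sum, and to between 324252 and 349649 in the differentiation samples. Marker genes of neural stem/progenitor cells were present throughout, with a summed FPKM of the 8 markers from 1585 to 2845 under proliferating and from 734 to 827 under differentiation conditions. The summed FPKM of 8 microglia and macrophage markers did not exceed 0.49 in any sample, that of 6 endothelial markers stayed at or below 0.90, and that of 10 mural cell and fibroblast markers stayed at or below 1.54. These are bulk samples, in which fewer cells of a type and less RNA per cell cannot be told apart.

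The sequence before the start site of 3 genes is shown because these genes mark the ends of the pattern described here: Tgfb1, the ligand gene with the lowest level, Tgfb2, the ligand gene with the highest level, and Tgfbr2, the receptor gene with the largest fitted difference under proliferating conditions. Each line holds the 250 bases before the RefSeq start site (GRCm38.p6), 5′ to 3′ on the strand of the gene, with matches to 3 motifs in capitals.
Tgfb1: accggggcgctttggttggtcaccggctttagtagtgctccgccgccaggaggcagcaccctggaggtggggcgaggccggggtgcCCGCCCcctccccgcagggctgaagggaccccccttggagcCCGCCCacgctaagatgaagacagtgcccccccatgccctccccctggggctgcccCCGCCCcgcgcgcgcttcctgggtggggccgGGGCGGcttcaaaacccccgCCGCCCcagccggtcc
Tgfb2: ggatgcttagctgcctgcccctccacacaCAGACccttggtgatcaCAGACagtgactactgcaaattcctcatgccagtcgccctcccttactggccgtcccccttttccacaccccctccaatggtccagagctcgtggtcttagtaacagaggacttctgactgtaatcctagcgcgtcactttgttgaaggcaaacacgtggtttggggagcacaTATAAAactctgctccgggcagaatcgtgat
Tgfbr2: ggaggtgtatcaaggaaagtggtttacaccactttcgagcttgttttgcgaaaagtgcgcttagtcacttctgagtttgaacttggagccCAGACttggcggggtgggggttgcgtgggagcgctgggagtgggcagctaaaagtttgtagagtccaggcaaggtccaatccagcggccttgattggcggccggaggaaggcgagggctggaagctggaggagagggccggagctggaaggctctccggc
The windows are chr7:25686752-25687001 (plus strand) for Tgfb1, chr1:186705990-186706239 (minus strand) for Tgfb2 and chr9:116175364-116175613 (minus strand) for Tgfbr2. The capitals mark TATAAA (the TATA box), CAGAC (the core that SMAD proteins bind) and GGGCGG (the GC box), searched on both strands, so that a reverse complement also counts. The Tgfb1 window had a GC content of 75.2% and held 5 matches to GGGCGG. The Tgfb2 window had a GC content of 53.6% and held TATAAA at position -31 from the start site and CAGAC at -221 and -204. The Tgfbr2 window had a GC content of 58.4% and held 1 CAGAC, at position -160. For comparison, the median GC content of 32536 RefSeq promoter windows of this length was 52.4%, and 12.3% of them held TATAAA, 42.2% CAGAC and 33.0% GGGCGG. A match describes letters only and is not a binding site. Entries for 5 of the 9 genes were used. Of these, Tgfbr1 and Smad3 held 2 matches each to GGGCGG in the window of their first or sole start site. The GC content of these windows was 74.8% for Tgfbr1 and 69.2% for Smad3. The windows of the remaining genes were not examined.

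**Figure D1:**
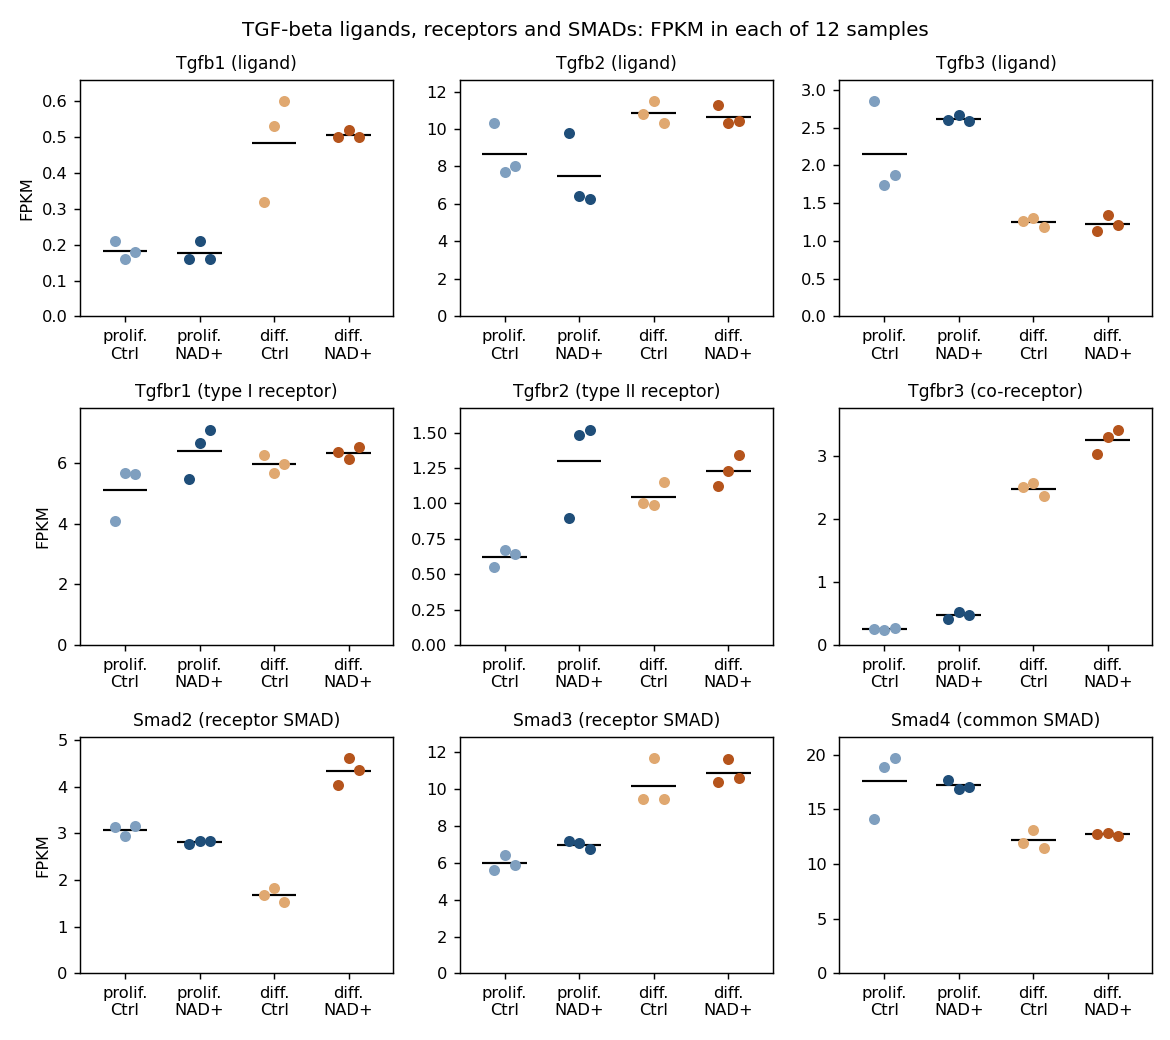
FPKM of each of the 9 genes in each of the 12 samples, with groups on the horizontal axis, FPKM on the vertical axis (a scale of its own per gene, from 0), points for samples and lines for group means. Smad2 stood at 1.52 to 1.82 FPKM in differentiation Ctrl and at 4.03 to 4.61 with NAD+, and Tgfbr3 at 0.24 to 0.53 in all proliferating samples against 2.36 to 3.42 in all differentiation samples.

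Tgfb2 supplied most of the ligand transcript in every group, and NAD+ exposure changed none of the 3 ligand genes past the threshold under either condition. Tgfb2 (chromosome 1, 186622792 to 186705989, minus strand, in GENCODE M21) was measured at 10.34, 7.71 and 8.00 FPKM in proliferating Ctrl and at 9.80, 6.41 and 6.27 FPKM with NAD+. Under differentiation conditions it was measured at 10.82, 11.48 and 10.31 FPKM in Ctrl and at 11.27, 10.30 and 10.43 FPKM with NAD+. The groups overlapped under both conditions, with a log2 fold change (NAD+ minus Ctrl, on log2 of FPKM plus 0.1) of -0.23 ± 0.20 (SE, n = 3 per group, limma adjusted p = 0.610) under proliferating and -0.03 ± 0.07 (limma adjusted p = 0.849) under differentiation conditions. Replicate 1 was the highest of the 3 in both proliferating groups.

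Tgfb3 (chromosome 12, 86056745 to 86079041, minus strand) was measured at 2.85, 1.74 and 1.87 FPKM in proliferating Ctrl and at 2.60, 2.67 and 2.59 FPKM with NAD+. Here Ctrl replicate 1 lay above all NAD+ samples and the other two Ctrl samples below them, and the log2 fold change was 0.30 ± 0.20 (limma adjusted p = 0.496), or 0.51 without Ctrl replicate 1. Under differentiation conditions Tgfb3 lay at 1.26, 1.31 and 1.18 FPKM in Ctrl and at 1.13, 1.34 and 1.21 FPKM with NAD+, again overlapping (log2 fold change -0.03 ± 0.13, limma adjusted p = 0.924). Tgfb1 (chromosome 7, 25687002 to 25705077, plus strand), the family member best known from inflammation and wound repair, was the lowest of the 9 genes in all 4 groups. It was measured at 0.21, 0.16 and 0.18 FPKM in proliferating Ctrl, 0.16, 0.21 and 0.16 FPKM in proliferating NAD+, 0.32, 0.53 and 0.60 FPKM in differentiation Ctrl, and 0.50, 0.52 and 0.50 FPKM in differentiation NAD+ samples. At a mean near 0.18 FPKM, the 95% interval of its proliferating log2 fold change ran from -0.66 to 0.59, so a change of moderate size could not have been seen. Of the FPKM of the 3 ligand genes within a sample, Tgfb2 made up 79.0% ± 1.6 (SD, n = 3) in proliferating Ctrl, 72.2% ± 5.1 in proliferating NAD+, 86.2% ± 1.0 in differentiation Ctrl and 86.0% ± 1.3 in differentiation NAD+ samples. Tgfb3 made up 19.3% ± 1.7, 26.1% ± 4.6, 9.92% ± 0.21 and 9.92% ± 1.13 in the same order. In GENCODE M21, Tgfb2 shares 124 exon bases with the antisense gene Gm29491 (at most 0.5 FPKM in any sample), and Tgfb3 shares 163 and 257 with Gm37804 and Gm48008 on the opposite strand (at most 0.32 and 0.15 FPKM), and without stated strand information reads of such pairs cannot be told apart. Tgfbr3 shares 297 exon bases with Gm43422 on the same strand (at most 0.06 FPKM).

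Among the receptors, Tgfbr2 and Tgfbr3 stood higher with NAD+ under proliferating conditions in every sample, without passing the adjusted threshold, while Tgfbr1 overlapped. Tgfbr2 (chromosome 9, 116084293 to 116175360, minus strand) encodes the type II receptor that binds the ligand. It was measured at 0.55, 0.67 and 0.64 FPKM in proliferating Ctrl and at 0.90, 1.48 and 1.52 FPKM with NAD+. All 3 NAD+ samples lay above all 3 Ctrl samples, with NAD+ replicate 1 nearest to them. The log2 fold change was 0.93 ± 0.24 (SE, 95% interval 0.35 to 1.51, limma unadjusted p = 0.00676, adjusted p = 0.168), and the ratio of the mean FPKM was 2.10. With limma p-values, Tgfbr2 was the only 1 of the 9 genes to meet the study's rule for a differentially expressed gene under proliferating conditions. The study's own p-values and calls were not used. Its rule asks for an unadjusted p under 0.05 and more than a 2-fold ratio of mean FPKM. In the upward direction this rule was met by 1.6% of all 18597 genes tested. The ratio lay close to the fold set by that rule, and fell to 1.98 without Ctrl replicate 1, 1.95 without NAD+ replicate 2, 1.92 without NAD+ replicate 3 and to just under 2 (1.997) with median-ratio scaling, at which the rule was no longer met. Under differentiation conditions Tgfbr2 was measured at 1.00, 0.99 and 1.15 FPKM in Ctrl and at 1.12, 1.23 and 1.34 FPKM with NAD+, which overlapped (log2 fold change 0.21 ± 0.14, limma adjusted p = 0.401).

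Tgfbr3 (chromosome 5, 107106570 to 107289629, minus strand) encodes betaglycan, a co-receptor that presents ligand to the type II receptor and is known above all for binding TGF-beta2. It was measured at 0.26, 0.24 and 0.27 FPKM in proliferating Ctrl and at 0.42, 0.53 and 0.48 FPKM with NAD+. Under differentiation conditions it was measured at 2.51, 2.57 and 2.36 FPKM in Ctrl and at 3.03, 3.30 and 3.42 FPKM with NAD+. The NAD+ samples lay above the Ctrl samples under both conditions without overlap. The log2 fold change was 0.69 ± 0.22 (limma unadjusted p = 0.0175, adjusted p = 0.233, ratio of means 1.86) under proliferating conditions. It was 0.38 ± 0.09 (95% interval 0.16 to 0.59, limma unadjusted p = 0.00513, adjusted p = 0.0617, ratio of means 1.31) under differentiation conditions. The differentiation value passed the threshold under 3 of 14 alternatives (adjusted p from 0.0383 to 0.159 over all 14), with a limma adjusted p of 0.0389 after a filter at a mean of 1 FPKM, 0.0388 with median-ratio scaling and 0.0383 with quantile normalization.

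Tgfbr1 (chromosome 4, 47353222 to 47414931, plus strand) encodes the type I receptor kinase, and it had the highest level of the 3 receptor genes in every group. It was measured at 4.07, 5.66 and 5.62 FPKM in proliferating Ctrl and at 5.46, 6.64 and 7.09 FPKM with NAD+. The lowest NAD+ sample lay below the upper 2 Ctrl samples, and its fitted difference was 0.32 ± 0.17 on the log2 scale (limma adjusted p = 0.405). Under differentiation conditions it stayed within 5.65 to 6.25 FPKM in Ctrl and 6.14 to 6.52 FPKM with NAD+, a log2 difference of 0.09 ± 0.07 (limma adjusted p = 0.483).

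Among the SMAD genes, NAD+ exposure raised Smad2 under differentiation conditions, and no other SMAD gene passed the threshold under either condition. Smad2 (chromosome 18, 76241580 to 76310963, plus strand) encodes a receptor-regulated SMAD. It was measured at 1.69, 1.82 and 1.52 FPKM in differentiation Ctrl and at 4.03, 4.61 and 4.35 FPKM with NAD+. The lowest NAD+ sample was more than 2-fold above the highest Ctrl sample. The log2 fold change was 1.32 ± 0.11 (SE, n = 3 per group, 95% interval 1.07 to 1.57, limma adjusted p = 0.0043), and the ratio of the mean FPKM was 2.58. Smad2 was the 1 gene of the 9 with an adjusted p under 0.05 under differentiation conditions, where 6.92% of all 19611 genes tested were called, and the 1 gene that met the study's rule, which 1.36% of all genes met in the upward direction. Its adjusted p lay between 0.0028 and 0.0286 over 14 alternatives. Its ratio of means lay between 2.47 and 2.74, but only median-ratio scaling and leaving out a sample could change this ratio. Under proliferating conditions Smad2 was measured at 3.14, 2.95 and 3.15 FPKM in Ctrl and at 2.78, 2.83 and 2.83 FPKM with NAD+. There the NAD+ samples lay just below the Ctrl samples without overlap (log2 fold change -0.13 ± 0.11, limma adjusted p = 0.599). GENCODE M21 lists 7 transcripts of Smad2 and no other gene overlapping it, and FPKM per gene does not tell its transcripts apart.

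Smad3 (chromosome 9, 63646767 to 63757994, minus strand) encodes the other receptor-regulated SMAD of this branch, which unlike the main form of SMAD2 binds DNA directly. It was measured at 5.63, 6.44 and 5.91 FPKM in proliferating Ctrl and at 7.17, 7.06 and 6.74 FPKM with NAD+. The groups did not overlap, but the log2 fold change was only 0.22 ± 0.10 (limma adjusted p = 0.333). Under differentiation conditions it was measured at 9.45, 11.68 and 9.46 FPKM in Ctrl and at 10.39, 11.63 and 10.59 FPKM with NAD+, which overlapped (log2 fold change 0.10 ± 0.10, limma adjusted p = 0.610). Smad4 (chromosome 18, 73639009 to 73703780, minus strand), the shared partner of the TGF-beta and bone morphogenetic protein (BMP) branches, had the highest level of the 9 genes in all 4 groups. Its proliferating Ctrl samples were spread from 14.15 to 19.68 FPKM around NAD+ samples at 16.90 to 17.71 FPKM, and the log2 difference was -0.01 ± 0.13 (limma adjusted p = 0.971). Under differentiation conditions it lay at 11.51 to 13.08 FPKM in Ctrl and at 12.58 to 12.87 FPKM with NAD+ (log2 fold change 0.06 ± 0.06, limma adjusted p = 0.589).

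Over the 9 genes, 0 had an adjusted p under 0.05 under proliferating conditions, where 0.145% of all genes tested were called, and 2 (Tgfbr2 and Tgfbr3) had an unadjusted p under 0.05, as did 15.4% of all genes tested. The NAD+ samples lay above all Ctrl samples for 3 of the 9 genes under proliferating conditions (Tgfbr2, Tgfbr3 and Smad3), against 15.5% of all genes tested, and below them for Smad2. Under differentiation conditions they lay above all Ctrl samples for 2 of the 9 (Smad2 and Tgfbr3), against 9.68% of all genes tested. The median log2 fold change of the 9 genes was 0.22 under proliferating and 0.09 under differentiation conditions, beside 0.07 and -0.08 over all genes tested. An exact permutation test of 3 samples against 3 cannot give a two-sided p below 0.1, and it gave p = 0.1 for each gene whose groups did not overlap.

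**Figure D2:**
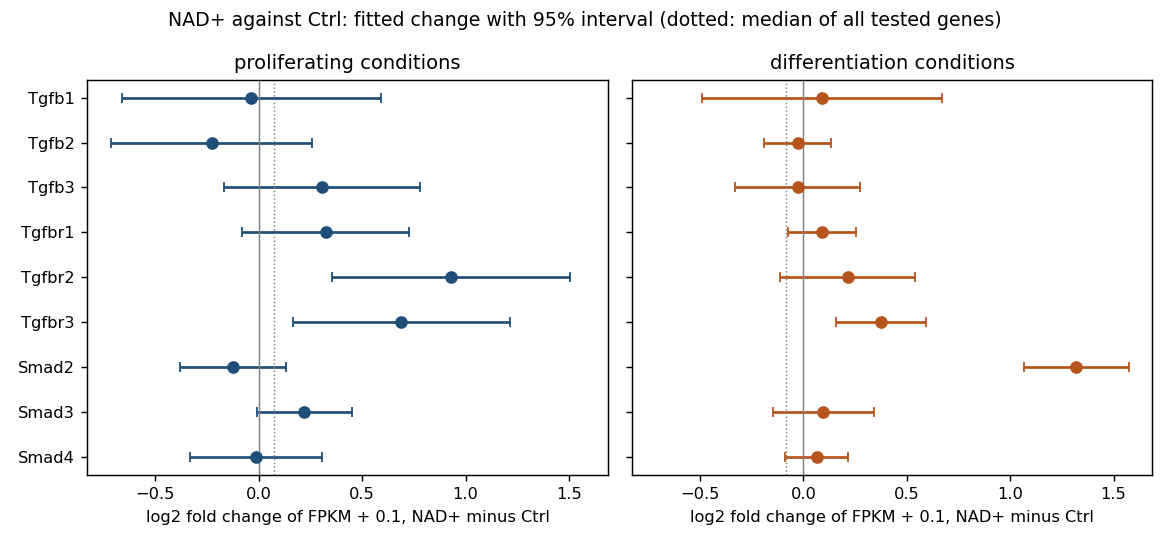
Fitted log2 fold change of each gene (NAD+ minus Ctrl, on log2 of FPKM plus 0.1) with its 95% interval, under proliferating (left) and differentiation conditions (right). The dotted lines are the medians of all genes tested (0.07 and -0.08), and the interval of Smad2 under differentiation conditions, 1.07 to 1.57, lies above those of all other genes in that panel.

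Whether NAD+ acted differently under the 2 conditions was tested as a difference of the 2 effects over all 12 samples. The effect on Smad2 differed by 1.45 ± 0.14 on the log2 scale (SE, 95% interval 1.14 to 1.75, limma adjusted p = 0.00244), and Smad2 was the 1 gene of the 9 called, against 0.467% of all 19498 genes tested. The effect was an increase in the differentiation samples and a small, uncalled decrease in the proliferating samples. For Tgfbr2 the difference had the opposite sign, -0.72 ± 0.28, and did not pass the threshold (limma unadjusted p = 0.025, adjusted p = 0.253). For Tgfbr3 it was -0.31 ± 0.19 (limma adjusted p = 0.439), so its higher NAD+ values under both conditions were not shown to differ in size. For the other 6 genes the difference lay between -0.33 (Tgfb3) and 0.20 (Tgfb2), with adjusted p-values of 0.521 or more. The median difference over all genes was -0.16 and moved to -0.01 with median-ratio scaling, under which the Smad2 difference was still called.

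The levels of the 2 conditions come from separate tables and are set side by side without a test. In Ctrl, Tgfbr3 was 9.66-fold higher under differentiation than under proliferating conditions, Tgfb1 2.64-fold, Smad3 1.70-fold and Tgfbr2 1.69-fold higher, each without overlap of the samples. Smad4 stood at 0.694, Tgfb3 at 0.580 and Smad2 at 0.544 of their proliferating level, also without overlap, whereas Tgfb2 and Tgfbr1 overlapped. The samples did not overlap for 7 of the 9 genes in Ctrl, against 61.8% of all genes, and for 7 of the 9 genes in the NAD+ groups, against 66.8% of all genes. With NAD+, Smad2 was on the other side, at 1.54-fold its proliferating level, Tgfb2 stood apart at 1.42-fold, and Tgfbr1 and Tgfbr2 overlapped at ratios of 0.991 and 0.946. The direction of the other 5 genes that stood apart in Ctrl was the same with NAD+, where Tgfbr3 was 6.82-fold, Tgfb1 2.87-fold and Smad3 1.56-fold higher, and Tgfb3 and Smad4 stood at 0.468 and 0.739. With median-ratio scaling over the 12 samples, which moved the median log2 difference of all genes from -0.07 to 0.05 in Ctrl and from -0.21 to 0.05 with NAD+, Tgfb2 and Tgfbr1 stood apart and higher in Ctrl as well. With NAD+ this scaling turned the ratio of Tgfbr1 to 1.21, with the samples apart, and that of Tgfbr2 to 1.15, with the samples still overlapping.

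The order of the levels, which FPKM allows because it is scaled to length, differed between the Ctrl groups through Tgfbr3, which stood in place 8 under proliferating and in place 5 under differentiation conditions. In proliferating Ctrl the order of mean FPKM was Smad4, Tgfb2, Smad3, Tgfbr1, Smad2, Tgfb3, Tgfbr2, Tgfbr3 and Tgfb1, from 17.6 to 0.183 FPKM, and only Smad3 and Tgfbr1 overlapped as neighbors. In differentiation Ctrl the other 8 genes kept their order, and only Tgfb2 and Smad3 overlapped as neighbors. With NAD+ under differentiation conditions, Smad2 stood above Tgfbr3, and 2 pairs of neighbors overlapped (Smad3 with Tgfb2, and Tgfbr2 with Tgfb3). In proliferating NAD+ the order was that of proliferating Ctrl, with overlaps between Tgfb2 and Smad3 and between Smad3 and Tgfbr1.

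Ratios within a sample do not depend on the scaling between samples, and they show the same genes against each other. The FPKM of Smad2 relative to Smad3 was 0.558, 0.458 and 0.533 in proliferating Ctrl and 0.388, 0.401 and 0.420 in proliferating NAD+. It was 0.179, 0.156 and 0.161 in differentiation Ctrl and 0.388, 0.396 and 0.411 in differentiation NAD+, so both NAD+ groups lay in the same range while the Ctrl groups lay above and below it. Relative to Smad4, Smad2 had a mean of 0.137 in differentiation Ctrl and 0.340 in differentiation NAD+, without overlap. Tgfbr2 relative to Tgfbr1 was 0.135, 0.118 and 0.114 in proliferating Ctrl and 0.165, 0.223 and 0.214 with NAD+, again without overlap, whereas the differentiation groups overlapped at means of 0.176 and 0.194. Tgfbr3 relative to Tgfbr1 had means of 0.0514 and 0.0748 in proliferating Ctrl and NAD+ samples and 0.417 and 0.513 in differentiation Ctrl and NAD+ samples.

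**Figure D3:**
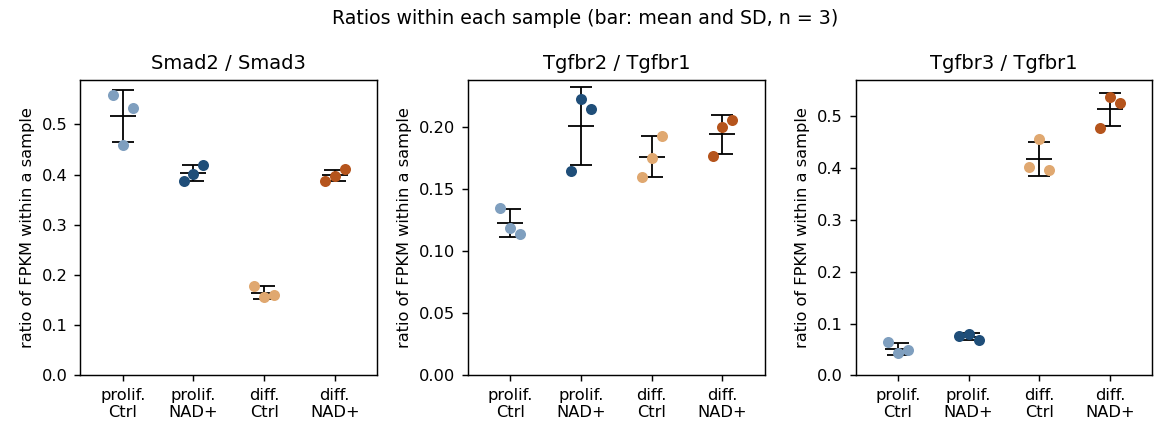
Ratio of the FPKM of 2 genes within each sample (vertical axis, from 0) for Smad2 to Smad3, Tgfbr2 to Tgfbr1 and Tgfbr3 to Tgfbr1 in the 4 groups, with points for samples and bars for mean and SD (n = 3). Smad2 to Smad3 is lowest in differentiation Ctrl (mean 0.165), and both NAD+ groups lie near 0.40 (means 0.403 and 0.398).

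Other genes of the pathway were taken from 6 lists chosen with the earlier results known and are given as counts. Of 12 genes for latency and activation of the ligands, 10 were tested under proliferating and 9 under differentiation conditions, and 0 had an adjusted p under 0.05 in either (limma, 3 and 4 with an unadjusted p under 0.05). An unadjusted p under 0.05 was found for 15.4% of all genes under proliferating and for 24.2% under differentiation conditions, against which the counts of each list stand. Those with the smallest p were Furin, a protease that cleaves the ligand precursors (log2 fold change 0.36, adjusted p = 0.175), and Lrrc32, which tethers latent ligand to the cell surface (-0.68, adjusted p = 0.194), under proliferating conditions. Under differentiation conditions they were Ltbp3, which binds latent ligand to the matrix (0.34, adjusted p = 0.0565), and Itgb8, an integrin subunit that activates it (0.15, adjusted p = 0.0987). Of 8 co-receptors and receptor regulators, 8 and 7 were tested, and Cd109, a co-receptor that dampens TGF-beta signaling, rose under differentiation conditions from 27.3 ± 1.3 to 41.1 ± 4.7 FPKM (SD, n = 3, limma adjusted p = 0.0186). Under proliferating conditions none of these 8 passed, with 2 at an unadjusted p under 0.05, Cd109 (0.40, limma adjusted p = 0.190) and Zfyve9, which anchors SMAD2 and SMAD3 near the receptor (0.29, adjusted p = 0.244).

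Of 12 inhibitory SMADs and corepressors, all were tested and 0 passed under either condition (limma, 1 with an unadjusted p under 0.05 in each). The smallest p-values belonged to Smurf2, a ubiquitin ligase acting on receptors and SMADs (0.25, limma adjusted p = 0.313), and Pmepa1 (-0.35, adjusted p = 0.346) under proliferating conditions, and to Nedd4l (-0.40, adjusted p = 0.164) and Pmepa1 (-0.36, adjusted p = 0.218) under differentiation conditions. Smad7, the feedback inhibitor, stood at 0.490 ± 0.079 and 0.473 ± 0.049 FPKM in proliferating and at 0.763 ± 0.125 and 0.640 ± 0.121 FPKM in differentiation Ctrl and NAD+ samples (SD, n = 3). Of 12 genes of the activin and nodal branch, which also signals through SMAD2 and SMAD3, 6 were tested under each condition and 0 passed (limma, 2 with an unadjusted p under 0.05 in each). Acvr1b, a type I activin receptor, had log2 fold changes of 0.25 (adjusted p = 0.268) and 0.16 (adjusted p = 0.179), Inha one of -0.43 under proliferating conditions (adjusted p = 0.280) and Gdf11 one of 0.21 under differentiation conditions (adjusted p = 0.137). Of the BMP-branch genes Smad1, Smad5 and Smad9, 0 passed under either condition (limma, 0 and 1 with an unadjusted p under 0.05). Smad9 had a log2 fold change of -0.47 under differentiation conditions (limma adjusted p = 0.0849) and Smad1 one of -0.13 (adjusted p = 0.423), and under proliferating conditions Smad9 had -0.18 (adjusted p = 0.733) and Smad5 0.39 (adjusted p = 0.768).

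Of 26 genes that textbooks list as responding to TGF-beta, 17 were tested under proliferating conditions and 0 passed (limma, 4 with an unadjusted p under 0.05). Timp1 (1.08, limma adjusted p = 0.139) and Junb (0.77, adjusted p = 0.168) had the smallest p. Under differentiation conditions 16 were tested and 3 rose, with 0 falling, beside 2.27% of all genes called higher and 4.65% called lower with NAD+. Junb, an AP-1 transcription factor gene, rose from 10.9 ± 0.2 to 32.0 ± 2.3 FPKM (SD, n = 3, limma adjusted p = 0.000805), Timp1, an inhibitor of matrix metalloproteinases, from 4.56 ± 0.40 to 8.72 ± 1.09 FPKM (adjusted p = 0.0108), and Bhlhe40, a transcriptional repressor gene, from 14.1 ± 0.4 to 17.8 ± 0.9 FPKM (adjusted p = 0.0279). Each of these 3 genes also responds to other signals. The median log2 fold change of the list was 0.05 under differentiation conditions and 0.19 under proliferating conditions, beside -0.08 and 0.07 over all genes. Ccn2, Tgfbi and the fibrillar collagen genes Col1a1, Col1a2 and Col3a1, responses often measured in fibroblasts, were below the filter of a mean of 0.1 FPKM under both conditions.

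**Figure D4:**
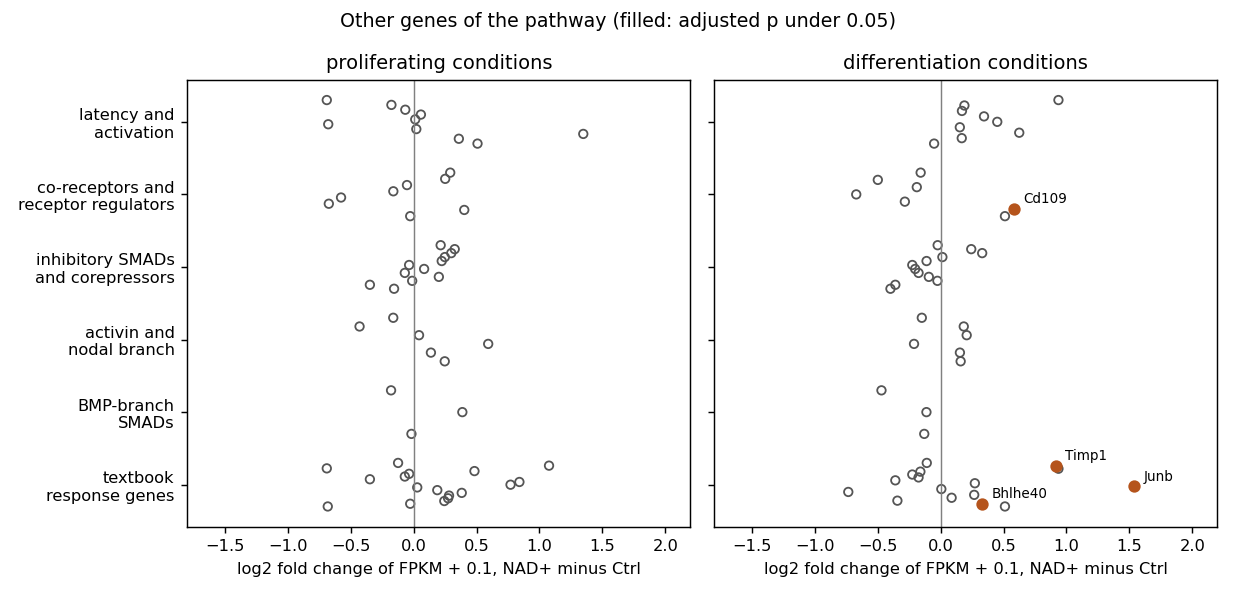
Log2 fold change (NAD+ minus Ctrl, on log2 of FPKM plus 0.1) of each tested gene of the 6 pathway lists, under proliferating (left) and differentiation conditions (right), with filled points for an adjusted p under 0.05. The 4 filled points are Cd109, Timp1, Junb and Bhlhe40, all above 0 and all under differentiation conditions.

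Markers of cell types differed between the groups in which Smad2, Tgfbr2 and Tgfbr3 stood higher. Under differentiation conditions the summed FPKM of 6 astrocyte markers was 1149 to 1260 in Ctrl and 1646 to 1671 with NAD+, where 3 markers (Gfap, Slc1a2 and Slc1a3) rose and 1 (Aldh1l1) fell (limma adjusted p under 0.05). The summed FPKM of 8 oligodendrocyte lineage markers was 567 to 583 in Ctrl and 423 to 442 with NAD+, and the myelin gene Cnp fell. Among the stem/progenitor markers, Hes5 and Pax6 fell and Vim rose under differentiation conditions, and the sums overlapped. Without Gfap the astrocyte sum was 597 to 617 in Ctrl and 673 to 701 with NAD+. Under proliferating conditions no marker of these lists passed. The sum of the stem/progenitor markers was 2594 to 2845 in Ctrl and 1585 to 2101 with NAD+, a gap carried by Fabp7 (2107 ± 127 and 1317 ± 254 FPKM, SD, n = 3), since the sum of the other 7 markers overlapped at 562 to 679 in Ctrl and 554 to 612 with NAD+. That of the oligodendrocyte lineage markers was 1308 to 1428 in Ctrl and 1052 to 1082 with NAD+. The part of these shifts in the differences of Smad2, Tgfbr2 and Tgfbr3 was not tested. The markers of microglia were near 0 in all groups, at a summed 0.49 FPKM or less.

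The genes whose pattern over the 12 samples was most like that of Smad2, after the mean of each condition was subtracted, were Cited1 (Pearson r = 0.968), Tmem255a (r = 0.959) and Sox9 (r = 0.934), among 11648 genes compared. Tmem255a, for example, stood at 13.7 ± 0.5 FPKM in differentiation Ctrl and at 26.1 ± 1.3 FPKM with NAD+ (SD, n = 3). Those most like Tgfbr2 were Pold3 (r = 0.968), Meaf6 (r = 0.954) and Ddx49 (r = 0.952), with Pold3 at 5.57 ± 0.15 FPKM in proliferating Ctrl and 7.28 ± 0.78 FPKM with NAD+. These correlations are descriptions over samples that share their groups.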

How the data were processed

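RNA-seq of 12 aNSPC samples in 4 groups of 3 was analysed. Reads were aligned by the authors to mm10 and those with a unique position were counted, and the FPKM derived from them were deposited as 2 tables, 1 per condition. The program that computed FPKM is not given in the sources used here. The deposited tables also hold the authors' fold changes, p-values and calls, which were not used. The 9 genes, the pathway lists and the markers were chosen with earlier results of these data known. All 9 genes are named throughout, each list gene with an adjusted p under 0.05 is named (at most 4 per list, or the 2 with the smallest p where none passed), and 3 genes are named by likeness to each of Smad2 and Tgfbr2. Smad7, Ccn2, Tgfbi and the collagen genes were added after their values were seen, and some list genes are not reported here.

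The 2 conditions were analysed separately by limma (version 3.58.1, R 4.3.3) on log2(FPKM + 0.1) over genes whose mean FPKM reached 0.1, with a variance trend, two-sided, and Benjamini-Hochberg adjustment over all genes tested. This scale understates the change of genes with low values. The study's rule was applied with the unadjusted limma p (under 0.05) and a ratio of mean FPKM over 2, with values of 0 raised to 0.0001. The difference of effects was a contrast over all 12 samples. The fitting code was tested on simulated data with known changes. Alternatives changed the number added, the filter, the scaling, the variance, the replicate block and the samples. The study's rule under each alternative was added after seeing the data. Gene positions came from GENCODE M21 (GRCm38, the build named mm10) and promoter sequences from RefSeq (GRCm38.p6). Tgfb3 and Tgfbr3 had no promoter entry. The promoter windows of Smad2 and Smad4 were not examined, so nothing can be said here about their motifs.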

Additional observations from a re-analysis of the deposited data

Results flagged for a closer look

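The NAD+ effect on Smad2 differed between the conditions by 1.45 on the log2 scale (limma adjusted p = 0.00244), in a test of the difference itself over all 12 samples. The differentiation NAD+ samples lay above all differentiation Ctrl samples (log2 fold change 1.32, limma adjusted p = 0.0043). The proliferating NAD+ samples lay just below all proliferating Ctrl samples, a small decrease that was not called (log2 fold change -0.13, limma adjusted p = 0.599).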

How the results depend on the processing

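Smad2 kept its direction and its adjusted p under 0.05 under differentiation conditions in all 14 alternatives, and in the difference between the conditions in all 20 (adjusted p from 0.00125 to 0.0386). With the replicate block, the adjusted p of Smad2 was 0.0242 under differentiation conditions and 0.0386 for the difference. Whether the numbers mark shared cultures is unknown. What was left of the values after the mean of each group was removed was correlated between Ctrl and NAD+ samples, so these values do not measure how alike the samples are. Same-numbered samples correlated by 0.0215 to 0.111 in this way. In the differentiation table, but not in the proliferating table, every sample correlated best with its own number. The study's rule called 1 of the 9 genes under proliferating conditions in place of 0. Under differentiation conditions 2 in place of 1 were called with a minimum mean FPKM of 1, median-ratio scaling or quantile normalization (Tgfbr3 in addition). Without each replicate in turn, the count of the 9 genes stayed 0 under proliferating and 1 under differentiation conditions.

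Small changes reversed, with the cause not tested. Leaving out each replicate in turn, the log2 fold change under proliferating conditions ranged from -0.12 to 0.031 for Tgfb1 (0.0067 without NAD+ replicate 1 or 3) and from -0.16 to 0.076 for Smad4 (0.044 without Ctrl replicate 2). Under differentiation conditions it ranged likewise from -0.067 to 0.013 for Tgfb2, from -0.088 to 0.026 for Tgfb3 (0.0049 without Ctrl replicate 2) and from -0.13 to 0.24 for Tgfb1. With median-ratio scaling and quantile normalization, Tgfb2 came to 0.056 and 0.042 and Tgfb3 to 0.050 and 0.075. In the difference between conditions Tgfbr3 came to 0.056 with 1 added, Smad3 to 0.027 with median-ratio scaling and 0.056 with quantile normalization, and, without each replicate in turn, Tgfb1 ranged from -0.095 to 0.27 and Smad4 from -0.012 to 0.22.

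Over all genes, the calls under proliferating conditions (27) ranged from 0 to 75, being 0 with the block (3094 at an unadjusted p under 0.05), 0 without moderation of the variance and 75 with a minimum mean FPKM of 1. Those under differentiation conditions (1357) ranged from 328 without Ctrl replicate 1 to 1589, with 758 under the block. Those of the difference (91) ranged from 12 to 195, with 47 under the block. The rounding to 0.01 FPKM limits what can be seen for Tgfb1 and proliferating Tgfbr3.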
